A study of Mus musculus with 38 samples.

Results

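The reads examined here were sperm small RNA reads that matched a mouse miRNA hairpin of the miRBase database but not the mouse genome, called unmatched reads. A miRNA was kept where its unmatched reads summed to at least 10 over the 38 mice, and 3 of the 689 miRNAs listed met this minimum: mmu-mir-696 with 639 unmatched reads, mmu-mir-712 with 162 and mmu-mir-714 with 182. The members were thus chosen by these sums, which are given as a description. No miRNA lay just under the minimum, because each of the other 686 listed 0 unmatched reads, and 3 members remained at a minimum of 1, 50 or 100 reads. The deposited total of unmatched miRNA reads stood above the listed ones in 30 mice. A listed 0 thus does not show that a hairpin had no unmatched reads.

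Sperm came from C57BL6/J males of 4 diet groups, each named by the diet of the dam until weaning at day 21 followed by the diet of the male from weaning until it was killed at 11 to 13 weeks. The control diet (CT) held 20% protein and the protein-restricted diet (PR) 8%, which gave 10 CTCT, 9 CTPR, 9 PRCT and 10 PRPR mice. A litter gave at most 1 male to each group, 8 of 11 CT litters gave both a CTCT and a CTPR male, and 9 of 10 PR litters gave both a PRCT and a PRPR male. The sperm had swum out of minced epididymides, and 1 small RNA library was made for each mouse. The labels and the mouse list of the study give opposite groups for the littermates 47I1 (here CTCT) and 47I2 (here CTPR), and exchanging them changed no call below.

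A miRNA is cut by the nuclease Dicer from a short hairpin RNA, and its seed, the bases near the 5′ end, pairs with target messages. Reads of a miRNA can differ from the genome where a base was edited, for example from adenosine to inosine by ADAR enzymes, or where a terminal transferase added untemplated bases to the 3′ end. A read also stays unmatched where the genome assembly does not hold the sequence that the database gives for the hairpin. In mouse endothelium miR-712 is known as a flow-sensitive RNA cut from the spacer of the ribosomal RNA precursor, and it targets Timp3, an inhibitor of metalloproteinases. In skeletal muscle miR-696 is known to target Ppargc1a, a coactivator of mitochondrial genes.

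The members also shared a lack of annotated names. This is not independent of their choice, because the unmatched reads and the annotation both refer to the same genome assembly, and a link between them was not tested. None of the 3 names matched a gene symbol in the GENCODE vM21 annotation of the mm10 assembly, whereas 653 of the other 686 names did (95.2%). The 33 other names without a match listed reads that matched the genome and no unmatched reads. RefSeq's table of GRCm38.p6 miRNAs matched 0 of the 3 members and 501 of the other 686 miRNAs, so no coordinates or sequences are given for the members. For comparison, the RefSeq mature sequences of abundant hairpins with 0 listed unmatched reads are shown, with the seed (bases 2 to 8) in capitals. The files do not separate the arms of a hairpin, so both arms are given, and no seed was shared among these sequences.
mmu-miR-148a-3p, GRCm38.p6, chr6:51269829-51269850, minus strand: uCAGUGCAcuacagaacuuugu
mmu-miR-148a-5p, GRCm38.p6, chr6:51269867-51269888, minus strand: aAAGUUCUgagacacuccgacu
mmu-miR-21a-5p, GRCm38.p6, chr11:86584120-86584141, minus strand: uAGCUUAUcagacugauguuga
mmu-miR-21a-3p, GRCm38.p6, chr11:86584082-86584103, minus strand: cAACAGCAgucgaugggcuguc
mmu-miR-10a-5p, GRCm38.p6, chr11:96317186-96317208, plus strand: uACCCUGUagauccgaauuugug
mmu-miR-10a-3p, GRCm38.p6, chr11:96317227-96317248, plus strand: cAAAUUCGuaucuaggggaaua

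The 3 hairpins with listed unmatched reads were scarce among listed reads that matched the genome, and the abundant hairpins listed no unmatched reads. mmu-mir-696 had 28 matched reads over all mice, mmu-mir-712 had 17 and mmu-mir-714 had 38, which placed them at ranks 339, 374 and 324 of 689 by matched reads. The other 686 hairpins held 4070022 matched reads. mmu-mir-148a, the hairpin with the most, had 930105 matched and 0 unmatched reads, which allows an unmatched share of up to 0.000323% (3 counts of the total, counting error only). mmu-mir-34c, abundant in sperm as background, had 115529 matched and 0 unmatched reads, which allows up to 0.00260%. Both limits count only unmatched reads listed under a hairpin. The deposited total of unmatched miRNA reads was 1087, of which 983 were listed, all under the members. The hairpins of the rest are not given, so the true shares could be higher than these limits.

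**Figure D1:**
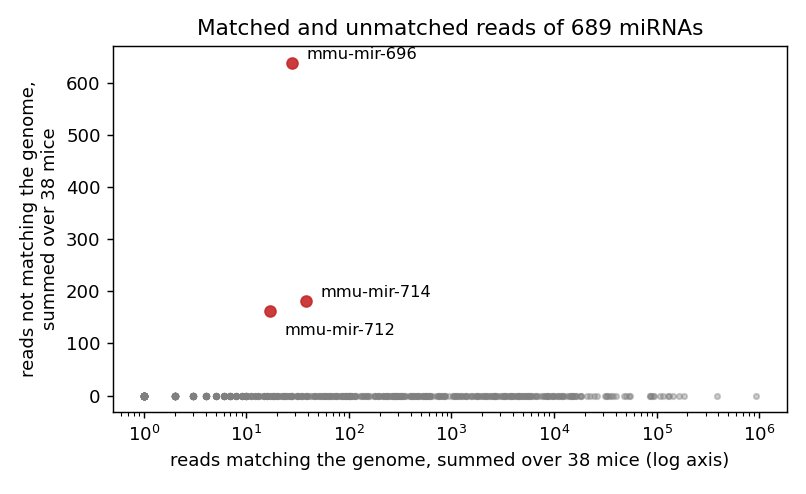
Each point is 1 of 689 miRNA hairpins, with its reads matching the genome summed over 38 mice on the horizontal log axis and its unmatched reads on the vertical axis. mmu-mir-696, mmu-mir-712 and mmu-mir-714 (red) lie at 639, 162 and 182 unmatched reads with 28, 17 and 38 matched reads, and the other 686 hairpins (grey) lie at 0 across the whole range of matched reads.

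Hairpins of families known for edited or tailed forms were among those with 0 listed unmatched reads. Each list was filled by family number, so it holds all hairpins of a family and not only those reported as edited or tailed. The list of families with reported adenosine-to-inosine editing held 27 hairpins with 57396 matched reads, and 0 of the 27 listed an unmatched read. The list of families with reported terminal tailing held 16 hairpins, among them the let-7 family, with 650377 matched reads and 0 unmatched reads. The let-7 hairpins also stand in a family list below, so the lists overlap. The 10 lists of families gave the same count of 0: let-7 and mir-98 (13 hairpins, 539282 matched reads), the mir-10 and mir-99 families (8 hairpins, 410221), the muscle list with mir-143 (9 hairpins, 443227), mir-30 (6 hairpins, 180273), mir-200 (5 hairpins, 156688), mir-34 and mir-449 (5 hairpins, 128104), the X-linked testis list (20 hairpins, 152888), the list of mir-21, mir-22, mir-24 and mir-29 (9 hairpins, 223381), mir-17-92 and relatives (16 hairpins, 34679) and mir-183, mir-96 and mir-182 (3 hairpins, 30936). None of the 12 lists holds a member, and over all 689 hairpins 3 had listed unmatched reads. The mismatches that the mapping allowed are not given in the sources used here, so whether an edited or tailed read would have been listed as unmatched was not tested.

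Nearly all listed reads of the members were unmatched. Pooled over mice, the unmatched share was 95.8% for mmu-mir-696 (639 of 667 reads, 95% Wilson interval 94.0 to 97.1%), 90.5% for mmu-mir-712 (162 of 179 reads, 85.3 to 94.0%) and 82.7% for mmu-mir-714 (182 of 220 reads, 77.2 to 87.1%). These intervals treat reads as independent and cover counting error only, and PCR copies were not marked. In most mice the listed share was 100%: 33 of the 36 mice with unmatched mmu-mir-696 reads, 25 of 28 for mmu-mir-712 and 24 of 30 for mmu-mir-714 listed no matched read of the same hairpin. The deposited total of matched miRNA reads was 4081231, of which 4070105 were listed under a hairpin. A listed 0 thus does not show that a member had no matched reads, and the true shares could be lower than those given.

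Matched reads of a member were listed in 14 cases from 11 mice. For mmu-mir-696 these were 16 matched beside 18 unmatched reads in 35F2, 4 beside 9 in 49K1 and 8 beside 9 in 57P1. For mmu-mir-712 they were 2 beside 3 in 57P1, 8 beside 8 in 08G5 and 7 beside 7 in 51O1. Matched reads of these hairpins were thus listed in few mice. For mmu-mir-714, 2 mice listed 5 matched and 0 unmatched reads each (35F1 and 57P3), and 6 mice listed both kinds, with 2 matched beside 2 unmatched reads in 39F6, 4 beside 4 in 56I1, 4 beside 5 in 53M1, 4 beside 7 in 47I1, 6 beside 9 in 08G5 and 8 beside 7 in 57P1. Over the 12 cases with both kinds, the counts were equal in 4 and within 1 read of each other in 8.

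mmu-mir-696 gave 65.0% of the members' unmatched reads and had the highest count of the 3 in 32 of the 37 mice with any. Its unmatched reads ran from a lowest of 6 through a median of 12.5 to a highest of 42 in CTCT, from 8 through 21 to 43 in CTPR, from 0 through 12 to 33 in PRCT and from 4 through 19 to 28 in PRPR. The 4 groups overlapped over most of their range, with the highest CTCT and CTPR counts in 07C3 and 09H5. It was at 0 in 31A3, whose file lists no unmatched miRNA class, and in 39F5, both PRCT mice. In 39F5 the deposited total was 22 unmatched miRNA reads, of which 11 were listed under the members.

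mmu-mir-712 was listed in 28 mice. Its unmatched reads ran from 0 through a median of 4.5 to 13 in CTCT, from 0 through 3 to 9 in CTPR, from 0 through 3 to 7 in PRCT and from 0 through 6 to 13 in PRPR. Every group held mice at 0, namely 2 of 10 CTCT, 2 of 9 CTPR, 4 of 9 PRCT and 2 of 10 PRPR mice.

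mmu-mir-714 was listed in 30 mice. Its unmatched reads ran from 0 through a median of 5.5 to 13 in CTCT, from 0 through 6 to 13 in CTPR, from 0 through 3 to 8 in PRCT and from 0 through 5.5 to 9 in PRPR. The groups overlapped here too, with the highest counts in 07C3 (CTCT) and 02A8 (CTPR), and 2, 1, 3 and 2 mice at 0 in CTCT, CTPR, PRCT and PRPR.

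**Figure D2:**
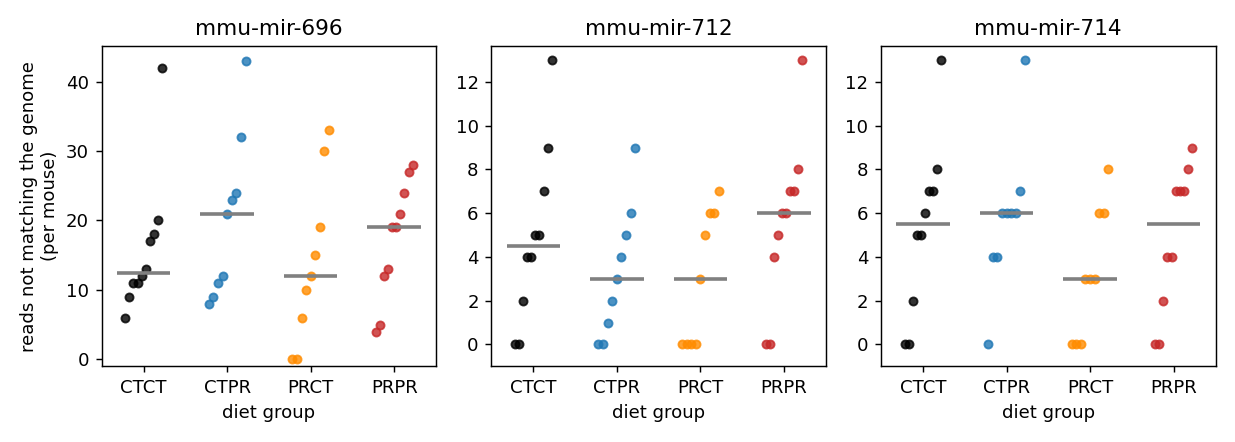
Unmatched reads per mouse (vertical axis, reads) of the 3 members in the 4 diet groups, with 1 point per mouse and a grey line at the median. The groups overlap in each panel, and mmu-mir-696 reaches 43 reads where mmu-mir-712 and mmu-mir-714 reach 13.

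Library size ran from 10709017 to 13496750 reads, a narrower range than that of the members' counts. All 3 members were listed together in 20 mice. These included each mouse that lists the class and whose deposited total equalled its listed reads.

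The deposited total of the unmatched miRNA class stood above the sum of the 3 members in 30 mice. Over all mice it was 1087 reads, of which the members gave 983 (90.4%), and the rest of the total was not analysed here. The class total ranged from 10 to 60 reads in the 37 mice that list it, a 6-fold range, while the matched miRNA reads ranged from 7805 in 02A8 to 378918 in 57P1, a 48.5-fold range. The unmatched share of the class was thus highest in the mice with the fewest miRNA reads: 0.583% in 07C3 (60 unmatched beside 10228 matched reads) and 0.523% in 02A8 (41 beside 7805). The lowest share among mice that list the class was 0.00686% in 57P1, with 26 unmatched reads. For scale, the unmatched share of the piRNA class was higher than that of the miRNA class in 38 of 38 mice, by 53.3 percentage points ± 6.43 (SD, n = 38; two-sided sign-flip permutation test over mice, p = 1e-05, the smallest that 100000 permutations can give). The piRNA shares ran from 37.8 to 69.8% and did not overlap the miRNA shares, so this p adds nothing to the count of mice. It also treats littermates as independent.

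**Figure D3:**
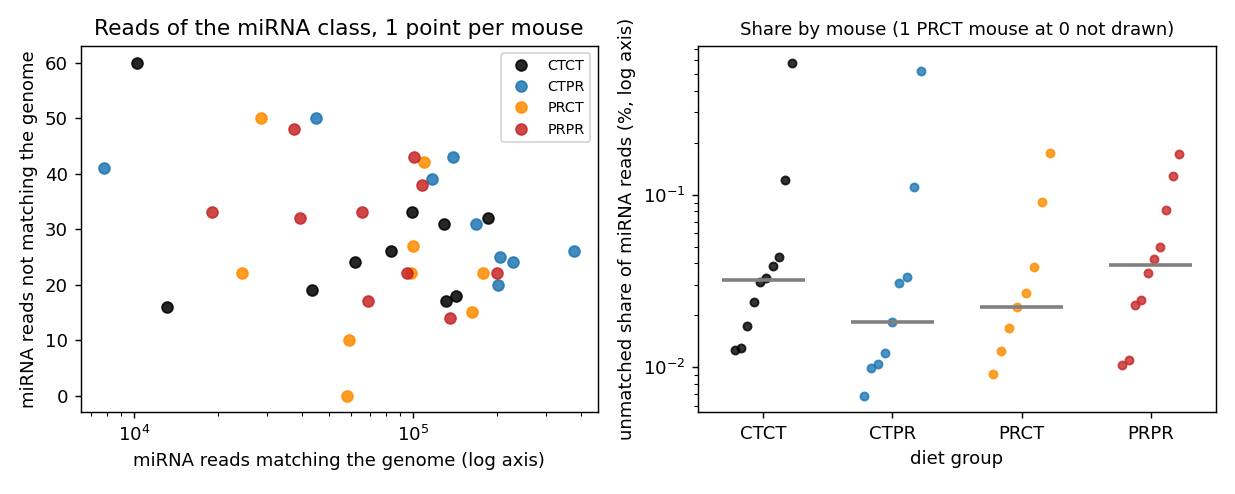
Left, miRNA reads that do not match the genome (vertical axis) against those that do (horizontal log axis), 1 point per mouse, coloured by diet group. Right, the unmatched share of miRNA reads in percent (log axis) by diet group, with a grey line at the group median and mouse 31A3 (PRCT, 0 reads) not drawn. Unmatched reads stay between 10 and 60 in 37 mice while matched reads run from 7805 to 378918, and the highest shares, 0.583% and 0.523%, belong to mice with 10228 and 7805 matched reads.

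Relative to library size, mmu-mir-714 and mmu-mir-696 were lower where the library held more matched miRNA reads by Pearson's r, but not by Spearman's rho after adjustment. Over the 37 mice that list the class, reads of mmu-mir-714 per 1000000 reads of the library correlated with the log2 number of matched miRNA reads at r = -0.55 (permutation p = 0.000340, adjusted over 10 relations 0.00340) and Spearman's rho = -0.34 (permutation p = 0.0396, adjusted 0.180). Within CTCT, CTPR, PRCT and PRPR r was -0.55, -0.71, -0.64 and -0.52, and over all mice it was -0.31 without the 2 mice farthest from the median of matched reads. For mmu-mir-696 r was -0.46 (permutation p = 0.00360, adjusted 0.0180) and rho -0.45 (permutation p = 0.00566, adjusted 0.0566), with -0.47, -0.62, -0.46 and -0.49 within the groups and -0.32 without the 2 farthest mice. For mmu-mir-712 r was 0.23 and rho 0.13 (permutation p = 0.177 and 0.428, adjusted 0.294 and 0.476), with 0.46, 0.28, 0.24 and 0.18 within the groups and 0.24 without the 2 farthest mice. These p-values treat the mice as independent although most litters gave 2 mice, and no test that accounts for litter was run for these relations. Both measures come from the same libraries, and in sperm RNA as a bulk sample fewer sperm and less RNA per sperm cannot be told apart. Between members no pair exceeded r = 0.27 in size over all mice. Unmatched ribosomal RNA reads were taken only from the class assigned to the Rfam database. Against these reads per 1000000, mmu-mir-714 had r = 0.41 (permutation p = 0.0118, adjusted 0.0294) and rho 0.23 (permutation p = 0.166, adjusted 0.398). That r was 0.13 without the 2 mice farthest from the median (02A6, CTCT, and 02A8, CTPR), and 0.13, 0.79, 0.68 and 0.42 within CTCT, CTPR, PRCT and PRPR. Against the same ribosomal RNA reads mmu-mir-712 had r = -0.21 (permutation p = 0.221, adjusted 0.303) and rho -0.14 (permutation p = 0.407, adjusted 0.476). For mmu-mir-696 r was 0.05 (permutation p = 0.786, adjusted 0.874) and rho 0.21 (permutation p = 0.217, adjusted 0.398).

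The question of whether diet before or after weaning changed the unmatched share of the miRNA class was asked in 4 comparisons. The share was 0.0918% ± 0.176 (SD, n = 10) in CTCT, with lowest, median and highest values of 0.0126, 0.0321 and 0.583%. It was 0.0840% ± 0.168 (SD, n = 9) in CTPR (0.00686, 0.0184 and 0.523%), 0.0436% ± 0.0561 (SD, n = 9) in PRCT (0, 0.0223 and 0.176%) and 0.0579% ± 0.0540 (SD, n = 10) in PRPR (0.0103, 0.0390 and 0.173%). The groups overlapped, and in CTCT and CTPR the SD was larger than the mean.

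None of the comparisons of the share passed the threshold in two-sided permutation tests of the difference in means. The difference from CTCT was -0.0079 percentage points for CTPR (exact permutation p = 0.814), -0.0483 for PRCT (exact permutation p = 0.652) and -0.0339 for PRPR (permutation p = 0.827), and PRPR minus PRCT was 0.0143 (exact permutation p = 0.580). The adjusted p was 0.827 in each. The effect of the diet after weaning differed between CT and PR dams by -0.0222 percentage points (permutation p = 0.723). These tests treat the mice as independent although most litters gave 2 mice. With littermates paired, CTPR minus CTCT was 0.0535 (exact permutation p = 0.414), of the opposite sign. PRPR minus PRCT was then 0.0168 (exact permutation p = 0.227). Without 31A3 the PRCT share was 0.0490% ± 0.0573 (SD, n = 8) and its difference from CTCT -0.0428 (exact permutation p = 0.760). The signs against CTCT rested on the mice with the fewest miRNA reads: without 07C3, 02A6 and 02A8 the differences were 0.0024 for CTPR, 0.0169 for PRCT and 0.0312 for PRPR (exact permutation p = 0.940, 0.509 and 0.139).

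The level of unmatched reads was compared with edgeR on all listed small RNA features, most of them piRNAs, scaled by each mouse's number of genome-mapped reads. Of the members only mmu-mir-696 passed the filter on low counts, and it was called in 0 of 4 comparisons at an adjusted p under 0.05, with 0 at an unadjusted p under 0.05 and 0 by DESeq2. Over the 14614 features tested, the share called was 0.0% for CTPR and PRCT against CTCT and 0.00684% for PRPR against CTCT, for PRPR against PRCT and for the difference of the effects. The log2 fold change of mmu-mir-696 against CTCT was 0.35 (SE 0.64, adjusted p = 0.906) in CTPR, -0.28 (SE 0.64, adjusted p = 1.00) in PRCT and 0.16 (SE 0.62, adjusted p = 1.00) in PRPR. It was 0.43 (SE 0.64) for PRPR against PRCT, and the post-weaning effect differed between CT and PR dams by -0.08 (SE 0.90). The SE was larger than the change in each of these comparisons. The median log2 fold change over all features was 0.69 in CTPR against CTCT and 0.19 with TMM scaling. With TMM, mmu-mir-696 against CTCT stood at -0.50 in CTPR, -0.89 (SE 0.75) in PRCT and -0.50 in PRPR.

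With no filter on low counts all 3 members were tested among 795000 features, and 0 of 3 were called in each comparison, with 0 at an unadjusted p under 0.05. The share of all features called was 0.783% for CTPR, 0.148% for PRCT and 0.265% for PRPR against CTCT, 0.134% for PRPR against PRCT and 0.614% for the difference of the effects. For mmu-mir-712 the log2 fold change against CTCT was -0.60 (SE 1.35) in CTPR, -0.76 (SE 1.36) in PRCT and 0.19 (SE 1.31) in PRPR. For mmu-mir-714 it was 0.12 (SE 1.35), -0.77 (SE 1.36) and -0.17 (SE 1.32). The SE was larger than the change in all of these, so changes of this size could not be called in this fit. The SE was not set by the counts alone. For mmu-mir-696 in CTPR against CTCT it was 1.34 here and 0.64 in the filtered fit.

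Unmatched against matched reads of the same hairpin could be compared between groups only in part, because few mice listed matched reads. mmu-mir-696 had 159 unmatched and 20 matched reads in CTCT (2 of 10 mice with matched reads), 183 and 8 in CTPR (1 of 9 mice), 125 and 0 in PRCT and 172 and 0 in PRPR. mmu-mir-712 had 49 and 0 in CTCT, 30 and 2 in CTPR, 27 and 7 in PRCT and 56 and 8 in PRPR, with the matched reads of CTPR, PRCT and PRPR in 1 mouse each. mmu-mir-714 had 53 and 13 in CTCT (3 mice with matched reads), 52 and 17 in CTPR (3 mice), 29 and 0 in PRCT and 48 and 8 in PRPR (2 mice). Where a group was at 0, the listed unmatched share was 100% and its fitted change is not given. Matched reads that were not listed under a hairpin are not in these counts.

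In the edgeR test of unmatched against matched reads over these 3 miRNAs, 0 of 3 were called in each comparison and in the difference of the effects (0.0% of those tested), with 0 at an unadjusted p under 0.05 and 0 called by DESeq2. The smallest p of each comparison is given as a description only, because each sets a group against one with 0 matched reads of that hairpin. Against CTCT it belonged to mmu-mir-712 in CTPR (p = 0.225, edgeR adjusted p = 0.676), to mmu-mir-714 in PRCT (p = 0.147, edgeR adjusted p = 0.178) and to mmu-mir-696 in PRPR (p = 0.113, edgeR adjusted p = 0.340). For PRPR against PRCT it belonged to mmu-mir-714 (p = 0.247, edgeR adjusted p = 0.740). A fit over 3 rows shares little information on the spread, and these values rest on matched reads from 11 mice.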

How the data were processed

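Small RNA libraries (insert size-selected) were mapped by the authors to mm10 and to miRNA, piRNA, tRNA and rRNA databases with SPORTS 1.0, and the deposited counts are reads per class and class member for each mouse, not normalised. Aligner settings and database versions are not given in the sources used here. Here unmatched and matched reads were read for every hairpin. A hairpin that a mouse did not list was counted as 0 for that mouse, also in the fits. The members and lists were chosen with earlier results of these data known. The named miRNAs were those with the most unmatched reads (all 3) and the smallest p in each comparison. Mouse 31A3 lists no unmatched miRNA class and was counted as 0. In 07C3, 35F2 and 08G5 the unmatched class totals do not add up to the reads not mapped to the genome. Shares were compared by permutation (two-sided, enumerated in full if at least 1 group had 9 mice or fewer, otherwise 100000 draws) in numpy 2.4.6 and Python 3.11.15. Levels and the ratio of unmatched to matched reads were fitted in R 4.3.3 with edgeR 4.0.16 (glmQLFTest, filterByExpr) and DESeq2 1.42.0, with Benjamini-Hochberg adjustment, and the scripts were tested on simulated data. For the ratio test the simulated data had many more rows than the real data. They were also drawn with matched reads in every group, so they do not show how that test behaves here. Littermates are paired by litter in the study, and their shares deviated together from the group means (r = 0.97 over 8 CT pairs, where litter 02A holds the high values 0.122% and 0.523%, and 0.78 over 9 PR pairs), whereas unmatched reads per 1000000 reads of the library gave r = -0.71 and 0.81, and mmu-mir-696 -0.58 and 0.88. Alternatives covered scaling, filters, pairing, the grouping of litter 47I and mice left out. Library sizes were 10709017 to 13496750 reads.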

Additional observations from a re-analysis of the deposited data

Results flagged for a closer look

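In 5 of 20 sets of values (5 measures in 4 groups) 1 mouse stood apart from the others of its group by Dixon's criterion. Chance gives about 1 in 20 only for independent sets of normally distributed values. Here the measures share reads and the class shares were skewed (CTCT mean 0.0918%, median 0.0321%), so the count is a description. The unmatched share of the miRNA class was 0.583% in 07C3 against at most 0.122% in the other CTCT mice, and 0.523% in 02A8 against at most 0.111% in the other CTPR mice. 07C3 also stood apart in unmatched miRNA reads per 1000000 reads of the library (5.21, next 3.00) and in mmu-mir-696 (3.64 per 1000000, next 1.82). 02A8 stood apart in mmu-mir-714 (1.19 per 1000000, next 0.577). These mice had 10228 and 7805 matched miRNA reads, the fewest of all, and the part of this in their values was not tested.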

How the results depend on the processing

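No call changed in any of the 157 recomputed values: 138 stayed the same and 19 turned in sign. Of these values 72 were counts, which have no direction and did not change. Of 43 values of the class share 31 kept their sign and 12 turned. Of 42 values of the mmu-mir-696 level 35 kept their sign and 7 turned. No p was under 0.05 before or after. For the share (percentage points against CTCT), leaving out 07C3, 35F2, 31A3 and 08G5 gave 0.0460 (CTPR), 0.0110 (PRCT), 0.0121 (PRPR) and 0.0448 for the difference of the post-weaning effects. Leaving out 07C3, 02A6 and 02A8 (chosen after seeing the data) gave 0.0024, 0.0169 and 0.0312. With log2 odds PRPR minus CTCT was 0.0030. Per 1000000 reads of the library (also added later) CTPR was 0.35 and PRPR 0.14 above CTCT (2.80 and 2.59 against 2.45). With litter as replicate block, CTPR minus CTCT was 0.0535 (exact permutation p = 0.414, higher in 4 of 8 litters), PRPR minus PRCT 0.0168 (exact permutation p = 0.227, higher in 7 of 9) and the difference of effects 0.0367, and the block changed no other call. For mmu-mir-696 (log2 against CTCT), TMM gave -0.50 in CTPR, -0.89 in PRCT and -0.50 in PRPR, and DESeq2 -0.66, -1.01 and -0.62. Without the 4 mice PRCT was 0.21 and the difference of effects 0.49, and without 31A3 the latter was 0.0838. The cause was not tested. Over all features edgeR called 0 to 1 per comparison, DESeq2 12 to 40, and edgeR without a filter 1067 to 6221. The ratio test with no filter or a minimum of 50 reads kept the 3 miRNAs, and its litter block gave no p for mmu-mir-696 and mmu-mir-714 in PR litters. The low read counts limit what could be detected.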
